A study of Homo sapiens with 19 samples.

Results

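The genes of the G1 phase of the cell cycle were followed in RNA-seq of melanoma cells and melanocytes in which BRG1 or MITF was silenced. The set was chosen by name and by function and holds 10 of the 44717 genes listed for any sample. They are the cyclin CCND1 with its kinases CDK4 and CDK6, the cyclin CCNE1 with its kinase CDK2, the inhibitors CDKN1A, CDKN1B, CDKN2A and CDKN2B, and RB1. All 10 were listed in the counts of every sample.

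In G1, cyclin D1 (from CCND1) binds CDK4 or CDK6, and cyclin E1 (from CCNE1) binds CDK2. These kinases phosphorylate the RB1 protein, which otherwise holds back E2F factors and with them the genes of DNA replication. The INK4 inhibitors p16 (from CDKN2A) and p15 (from CDKN2B) bind CDK4 and CDK6, and the CIP/KIP inhibitors p21 (from CDKN1A) and p27 (from CDKN1B) act on cyclin-CDK complexes, CDK2 among them. CDKN2A also encodes ARF from another first exon, and both p16 and p21 are widely used as marks of senescence. In the melanocyte lineage, MITF is the factor that drives pigment genes, CDKN2A and CDK4 are familial melanoma genes, and CDK2 lies beside the pigment gene PMEL.

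The study asked what the chromatin remodeller BRG1, encoded by SMARCA4, and MITF do in cells of the melanocyte lineage. 501Mel cells, a human melanoma line, received shSCR1 or shBRG1 with 3 samples each, or shSCR2 or shMITF with 2 samples each. Hermes 3A, a human melanocyte line described as untransformed, received shSCR, shBRG1 or shMITF with 3 samples each. The labels do not say whether samples of a group were separate cultures, so that p-values measure the spread between these samples, which may be technical. All shRNAs were carried by lentiviral vectors, and shSCR1, shSCR2 and shSCR are scramble controls. Each kind of cell is a single line, and the lines were grown differently: the Hermes 3A medium held TPA, cholera toxin, stem cell factor and endothelin-1, so that line and medium cannot be told apart. The time from infection to RNA is not given in the sources used here.

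The letters CACGTG and CATGTG, read on both strands, are E-boxes of the kinds that MITF binds. RefSeq promoter entries (GRCh38.p14, from 250 bases before to 50 bases after the start site) matched 8 of the 10 genes, in 10 entries, and CDK2 and CCND1 had none. The entry of CDK4 held 3 copies of CACGTG and 1 of CATGTG. Of 34943 promoters of this length, 7.23% held CACGTG at least once, 0.0944% held it 3 times or more, and 11.1% held CATGTG. CDK6 held CACGTG in 1 of its entries, within the 50 bases after the start site, and the other matched genes held neither. Of the E2F type motifs searched on both strands, TTTGGCG was held by 1.91% of all promoters. For TTTCGCG the share was 1.3%. For TTTCCCG it was 4.26%. No entry matched here held any of them. The single entry of RB1 (chr13:48476200-48476499) lies inside the gene and not at its annotated start, where no promoter was searched. By the same annotation, the entries of CDK4, CDKN1A and CDKN1B and 1 entry each of CDK6 and CDKN2A also lie inside the annotated gene. The 250 bases before the start sites of CDK4 (chr12:57752311-57752560, minus strand) and CDKN2B (chr9:22009306-22009555, minus strand) are set side by side because CDK4 was the member with repeated E-boxes and CDKN2B the member with the largest rise. Capitals mark the E-boxes, and CACATG is CATGTG on the other strand.
CDK4: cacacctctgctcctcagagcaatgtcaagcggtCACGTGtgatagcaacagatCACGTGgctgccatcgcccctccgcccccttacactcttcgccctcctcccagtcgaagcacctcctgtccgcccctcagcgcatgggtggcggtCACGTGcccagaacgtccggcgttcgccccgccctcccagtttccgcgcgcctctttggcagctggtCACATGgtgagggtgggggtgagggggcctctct
CDKN2B: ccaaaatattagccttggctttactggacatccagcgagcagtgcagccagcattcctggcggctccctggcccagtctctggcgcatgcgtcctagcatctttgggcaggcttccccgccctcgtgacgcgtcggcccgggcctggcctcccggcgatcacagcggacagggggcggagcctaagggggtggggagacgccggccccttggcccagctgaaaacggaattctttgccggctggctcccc
A match of letters is a description, and neither promoter was assayed in these counts.

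CDKN2A and CDKN2B are near copies of each other in part of their coding sequence, which bears on how reads were divided between them. Of 359 aligned windows of 50 bases in both coding sequences, 31 were identical. A read from such a window could come from either gene, and how the counting treated it is not given in the sources used here.

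Between 29158502 and 78857900 reads were counted on genes in each sample. Levels are given as TMM CPM, counts scaled to a common library size (CPM) with TMM factors shared by the 19 samples, and changes as log2 fold changes ± standard error from fits of each knockdown against its own scramble group. A gene passed at an adjusted p under 0.05, and was called at that p with a log2 fold change beyond 1 in size, the thresholds of the study. SMARCA4 fell by 2.36 in 501Mel and by 2.38 in Hermes 3A on the log2 scale with shBRG1. With shMITF, MITF fell by 1.06 in 501Mel and by 0.85 in Hermes 3A, where it passed but was not called. In 501Mel, MITF had 497 and 548 CPM with shMITF, 1003 and 1204 CPM with shSCR2, and 501, 600 and 595 CPM with shSCR1. The shMITF samples thus lay below the shSCR2 samples and overlapped the shSCR1 samples. With shBRG1, MITF also fell by 1.55 in 501Mel and by 0.43 in Hermes 3A. The biological coefficient of variation between samples of a group was 4.58 to 5.97% in the scramble and shBRG1 groups of 3, 16.9 and 18.2% in the pairs of shSCR2 and shMITF samples of 501Mel, and 31.5% with shMITF in Hermes 3A. The 2 scramble groups of 501Mel differed in 33% of 19056 genes tested at the same thresholds, which touches several results below. With shBRG1 in 501Mel, library sizes in place of TMM moved the median log2 fold change of all genes by 0.35, from 0.05 to 0.40. For the other comparisons with a shift over 0.1, it was 0.10 for shBRG1 in Hermes 3A, 0.26 for the scramble groups of the 2 lines, -0.14 between shSCR2 and shSCR1, 0.27 for the difference between lines in the effect of shBRG1 and 0.23 for that between the knockdowns in 501Mel. Melanocyte markers were present in every sample (summed level of 7 genes 3030 to 65300 CPM). In 501Mel they summed to 28600 to 31300 CPM with shSCR1, 3030 to 3330 with shBRG1, 19900 to 23600 with shSCR2 and 11400 to 11900 with shMITF. In Hermes 3A they summed to 63800 to 65300 CPM with shSCR, 31400 to 32600 with shBRG1 and 26500 to 34400 with shMITF, with DCT at only 1.42 to 23.7 CPM. KRT5, KRT14 and KRT1 of keratinocytes stayed at or under 0.159 CPM. The 4 fibroblast markers summed to 2.10 to 2.80 CPM with shSCR1 and 8.95 to 11 CPM with shBRG1 in 501Mel, to 1.19 to 1.26 CPM with shSCR2 and 2.64 to 3.55 CPM with shMITF, and in Hermes 3A to 65.9 to 73.7 CPM with shSCR, 139 to 149 CPM with shBRG1 and 104 to 221 CPM with shMITF. COL1A2 held nearly all of that sum in Hermes 3A (65.2 to 220 CPM) and was at or under 0.19 CPM in 501Mel, and the part of this list in the results was not tested. Of the 3 leukocyte markers, PTPRC and CD3E were at or under 0.096 CPM and CD14 reached 0.789 CPM in 501Mel and 0.862 CPM in Hermes 3A.

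With shBRG1 in 501Mel cells CCND1 and CDK2 were lower and CDK6 and CDKN2B higher. RNA came from whole cultures, so that fewer cells expressing a gene and less of its RNA per cell cannot be told apart. Of 9 genes tested, 2 were called down and 2 up, where 17.4% and 21.7% of all 20514 genes tested were called down and up, so that the share called was near that of all genes. All 9 passed the adjusted p, as did 80.3% of all genes, and in all 9 the samples of the 2 groups did not overlap, as in 81.6% of genes. CDKN1A was too low to be tested. With shMITF in 501Mel cells the same 4 genes were called in the same directions, 2 down where 3.4% of 17701 genes were and 2 up where 5.59% were. Here 6 of 9 passed, against 20.5% of all genes, and in all 9 the samples of the groups did not overlap, as in 60.9% of genes.

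Hermes 3A cells gave another pattern. With shBRG1, CDK6 was the single gene called down, where 3.47% of 17222 genes were. edgeR called 0 of the 10 up and DESeq2 also 0, where 5.78% of genes were called up by edgeR, and at an unadjusted p under 0.05, 4 were higher with shBRG1. In all 7 of 10 passed the adjusted p, against 56.9%, and 7 had groups that did not overlap, against 61.7%. With the shMITF samples in the same fit, which then share 1 estimate of the spread, CDK6 alone of these 7 passed, and the adjusted p of the others was 0.061 (CDK2) to 0.64 (CDKN1B). With shMITF, CCND1 and CDK2 were called down, where 4.04% of 16508 genes were, and CDKN1B was called up, where 3.35% were. Of the 10, 5 passed, against 17% of all genes, and 5 had groups that did not overlap, against 40.4%. Both Hermes 3A comparisons share the shSCR samples.

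**Figure D1:**
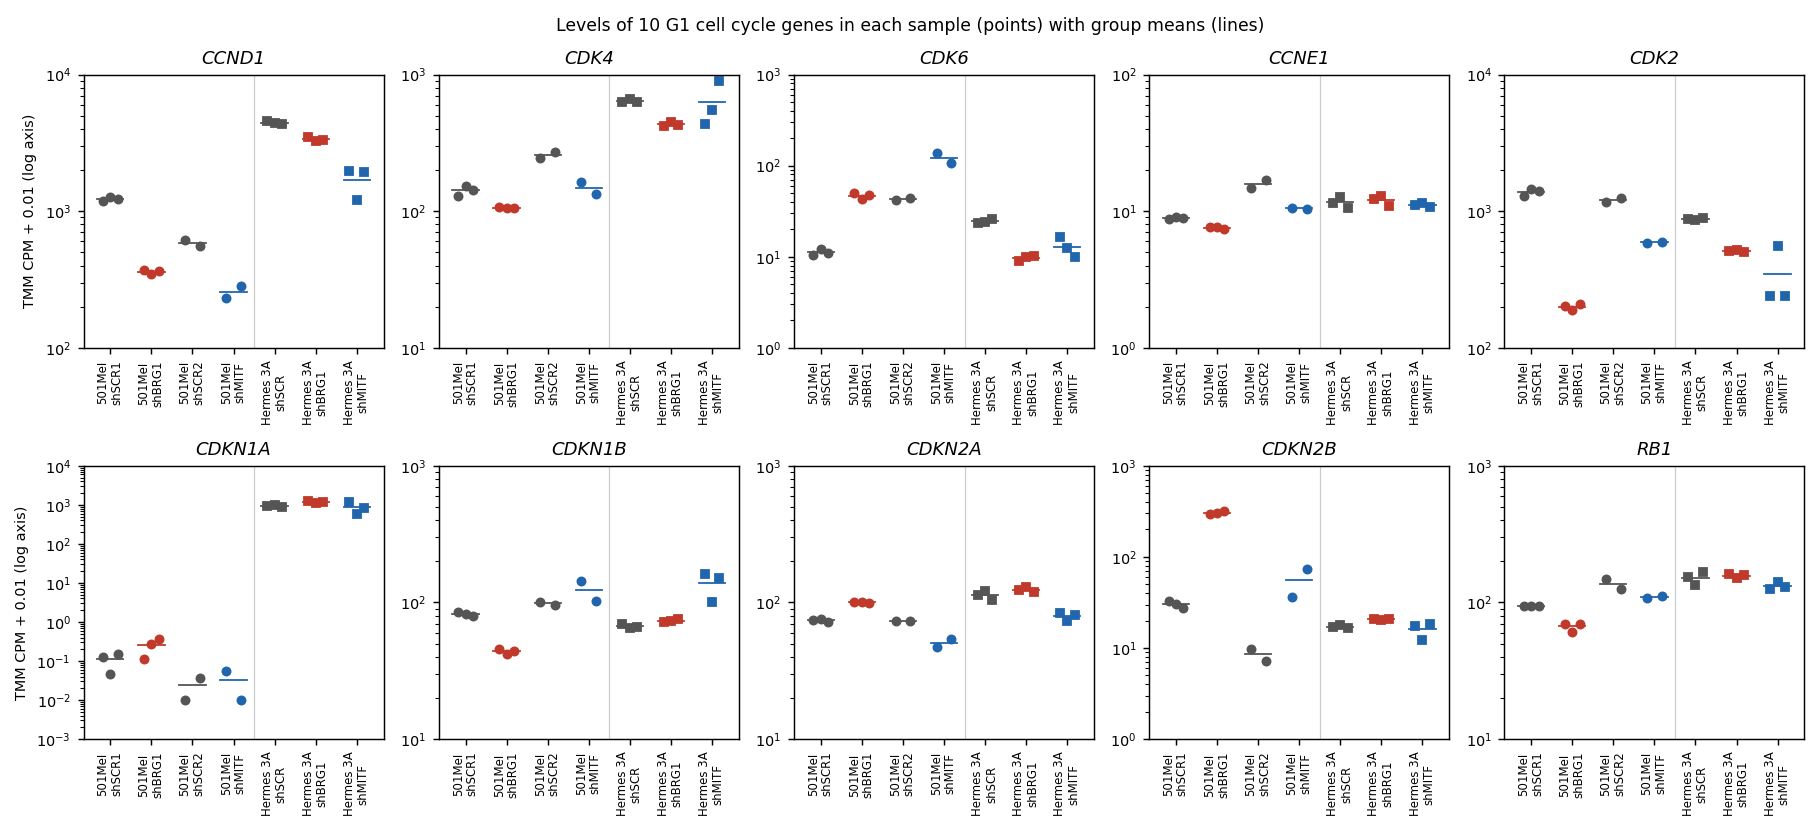
Level of each of the 10 genes in each of the 19 samples, as TMM CPM with 0.01 added, on a log axis; points are samples (circles 501Mel, squares Hermes 3A; grey scramble, red shBRG1, blue shMITF) and lines are group means. CDKN1A lies below 1 CPM in every 501Mel sample and above 500 CPM in every Hermes 3A sample, and CDKN2B is highest in the 3 shBRG1 samples of 501Mel.

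**Figure D2:**
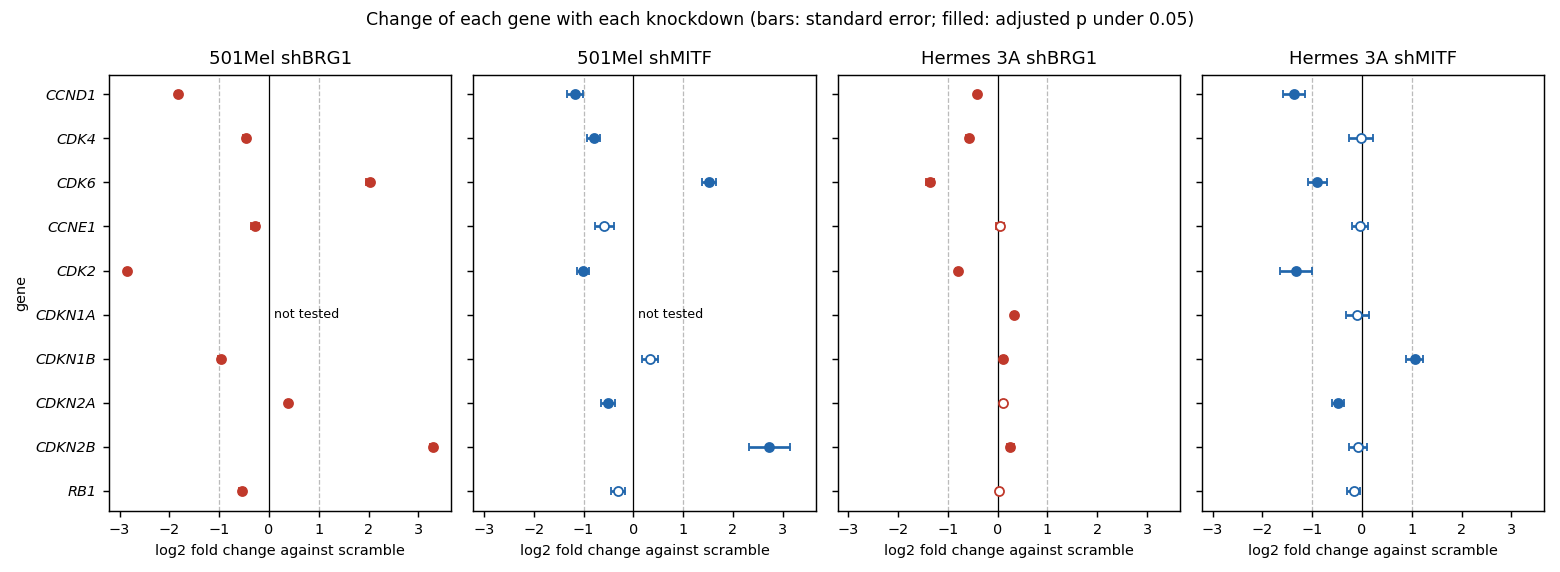
Log2 fold change of each gene against scramble in the 4 knockdown comparisons, with standard errors; filled points passed an adjusted p of 0.05 and dashed lines mark log2 fold changes of -1 and 1. CDK6 lies at 2.02 and 1.51 in 501Mel and at -1.36 and -0.89 in Hermes 3A.

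CCND1 (ENSG00000110092, chromosome 11 from 69641087 to 69654474 in GENCODE 29 on GRCh38) encodes cyclin D1, the cyclin that growth factor signals raise. It had 1183, 1268 and 1237 CPM with shSCR1 and 370.5, 346 and 365 CPM with shBRG1 in 501Mel. The groups lay far apart, with a log2 change of -1.82 ± 0.049 (adjusted p = 7.3e-20). With shSCR2 it had 613 and 552 CPM, and with shMITF 230.1 and 281.5 CPM, a log2 change of -1.18 ± 0.16 (adjusted p = 0.0017). All shMITF samples thus lay below all shSCR2 samples, which themselves lay below shSCR1. In Hermes 3A the levels were higher, at 4534, 4437 and 4351 CPM with shSCR and 3489, 3283 and 3320 CPM with shBRG1. That fall was small, -0.42 ± 0.041 (adjusted p = 7.5e-10). With shMITF the Hermes 3A samples had 1970, 1212 and 1921 CPM, a log2 change of -1.36 ± 0.21 (adjusted p = 0.0048). CCND1 was therefore lower in all 4 comparisons and called in 3, and the effect of shBRG1 was 1.43 ± 0.068 further down in 501Mel than in Hermes 3A (adjusted p = 1.9e-20). For shMITF the effects in the 2 lines differed by 0.18 ± 0.29 (adjusted p = 0.80), which did not pass. The call with shMITF in 501Mel was lost with both scramble groups as the control (-1.92, adjusted p = 0.053). In the annotation CCND1 shares 497 of its 4830 exon bases with LTO1 on the other strand. LTO1, named after its values were seen, was at 9.73 to 52.2 CPM over all samples and rose by 1.18 with shBRG1 in 501Mel, against the direction of CCND1.

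CDK4 (ENSG00000135446, chromosome 12 from 57747727 to 57756013) encodes the main partner of cyclin D1 and is the gene with repeated E-boxes above. In 501Mel it had 129.9, 152 and 143 CPM with shSCR1 and 107, 105 and 105 CPM with shBRG1, a log2 change of -0.47 ± 0.051 (adjusted p = 1.2e-08). With library sizes in place of TMM that value was -0.12. Levels with shSCR2 were 246 and 270.4 CPM and with shMITF 162 and 133 CPM, a log2 change of -0.80 ± 0.13 (adjusted p = 0.0033). CDK4 was thus lower with both knockdowns in 501Mel without being called in either, and with both scramble groups as the control the value for shMITF was -0.36 (adjusted p = 0.57). In Hermes 3A it had 631, 664.5 and 625 CPM with shSCR and 417, 449 and 429.5 CPM with shBRG1, a log2 change of -0.58 ± 0.042 (adjusted p = 1.2e-12). With shMITF in Hermes 3A the 3 samples spread over 436, 554 and 892 CPM, on both sides of the scramble samples, and the log2 fold change was -0.01 ± 0.24 (adjusted p = 0.98). The difference between the lines in the effect of shMITF was -0.79 ± 0.33 and did not pass (adjusted p = 0.23), and for shBRG1 it was 0.08 ± 0.065 (adjusted p = 0.30). CDK4 shares 1369 of its 3168 exon bases with TSPAN31 on the other strand. TSPAN31, also named after its values were seen, had 20.7 to 66.1 CPM. It fell by 0.31 with shBRG1 in 501Mel, a direction that turned with library sizes, and rose by 0.38 with shBRG1 in Hermes 3A, where CDK4 fell.

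CDK6 (ENSG00000105810, chromosome 7 from 92604921 to 92836594) encodes the other kinase of cyclin D and moved in opposite directions in the 2 lines with either knockdown. The 501Mel samples had 10.4, 12.1 and 11 CPM with shSCR1 and 50.5, 42.9 and 47.3 CPM with shBRG1, a log2 change of 2.02 ± 0.069 (adjusted p = 5.0e-18). In the shSCR2 samples it had 42.3 and 43.8 CPM and with shMITF 136.5 and 107 CPM, a log2 change of 1.51 ± 0.14 (adjusted p = 0.00039). The shSCR2 samples thus stood at the level of the shBRG1 samples. With both scramble groups as the control the rise with shBRG1 was 0.96 (adjusted p = 0.17) and that with shMITF 2.34 (adjusted p = 0.087), and neither was called. In Hermes 3A CDK6 had 23.6, 23.8 and 25.8 CPM with shSCR, 8.91, 9.87 and 10.2 CPM with shBRG1 and 16.3, 12.4 and 10.0 CPM with shMITF. Every knockdown sample there lay below every scramble sample, with log2 changes of -1.36 ± 0.076 (adjusted p = 4.7e-15) and -0.89 ± 0.19 (adjusted p = 0.017). The latter did not pass without any 1 of the shSCR samples (adjusted p = 0.061 to 0.086). The effect of shBRG1 differed between the lines by 3.35 ± 0.10 (adjusted p = 6.4e-26) and that of shMITF by 2.39 ± 0.27 (adjusted p = 0.00096). Within 501Mel the effect of shBRG1 exceeded that of shMITF by 0.54 ± 0.14 (adjusted p = 0.0059), each against its own scramble group, an order that turned with both scramble groups as the control.

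CCNE1 (ENSG00000105173, chromosome 19 from 29811898 to 29824308), which encodes cyclin E1 and is itself an E2F target, was called in no knockdown comparison. In 501Mel it had 8.82, 9.02 and 8.89 CPM with shSCR1 and 7.67, 7.65 and 7.39 CPM with shBRG1. The log2 fold change of -0.28 ± 0.077 (adjusted p = 0.0018) passed but was 0.06 (adjusted p = 0.43) with library sizes, so that its direction depended on the scaling. With shSCR2 the gene had 14.8 and 17.0 CPM and with shMITF 10.6 and 10.4 CPM, a log2 change of -0.58 ± 0.18 (adjusted p = 0.053). That change passed with DESeq2 (-0.59, adjusted p = 0.014) and with all 501Mel groups in 1 fit (-0.61, adjusted p = 0.00073). With both scramble groups as the control it was -0.16 (adjusted p = 0.80). In Hermes 3A the range over the 9 samples was 10.6 to 12.9 CPM, with log2 fold changes of 0.05 ± 0.087 for shBRG1 and -0.04 ± 0.16 for shMITF and overlapping groups in both. The effects of shBRG1 in the 2 lines differed by -0.36 ± 0.12 (adjusted p = 0.0097), which did not pass with library sizes (adjusted p = 0.56) or without 501Mel shBRG1 replicate 1 (adjusted p = 0.097).

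CDK2 (ENSG00000123374, chromosome 12 from 55966769 to 55972784), the kinase of cyclin E and later of cyclin A, had the largest fall of the set. In 501Mel it went from 1296, 1455 and 1408 CPM with shSCR1 to 200.8, 190.5 and 208 CPM with shBRG1, a log2 change of -2.84 ± 0.056 (adjusted p = 2.5e-22). The shSCR2 samples had 1176 and 1249 CPM and with shMITF 589 and 598 CPM, a log2 change of -1.02 ± 0.12 (adjusted p = 0.0011). That value lies at the threshold of the call, which was lost at -0.92 with library sizes and at -0.99 without 501Mel shMITF replicate 1. The effect of shBRG1 was 1.80 ± 0.11 further down than that of shMITF (adjusted p = 4.1e-09). In Hermes 3A CDK2 had 879, 862.5 and 891 CPM with shSCR and 508, 515 and 499 CPM with shBRG1, a log2 change of -0.81 ± 0.040 (adjusted p = 3.3e-16). The fall with shBRG1 was 2.07 ± 0.068 deeper in 501Mel than in Hermes 3A (adjusted p = 2.9e-25). With shMITF the Hermes 3A samples had 239.5, 553 and 241 CPM, a log2 change of -1.32 ± 0.32 (adjusted p = 0.026). Replicate 2 thus stood at more than 500 CPM and the other two near 240. Without any 1 of the shSCR samples, or without shMITF replicate 3, the adjusted p was 0.070 to 0.092 and the call was lost.

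PMEL, which encodes a structural protein of the melanosome, runs on the other strand over chromosome 12 from 55954105 to 55973317, across the whole of CDK2, and 89 of the 3894 exon bases of CDK2 are also exon bases of PMEL. Whether reads were counted by strand is not given in the sources used here, so that reads of CDK2 and PMEL cannot be told apart in the shared bases. The same would hold for reads of unspliced PMEL RNA anywhere in CDK2, which was not tested. PMEL was at 2177 to 28760 CPM, far above CDK2. Its log2 changes were -3.15 with shBRG1 and -0.91 with shMITF in 501Mel, and -0.88 and -1.61 in Hermes 3A, each time with an adjusted p of at most 0.0038. CDK2 fell in the same 4 comparisons. The counts of CDK2 as a share of those of PMEL were not constant: 6.96 to 7.49% with shSCR1, 8.60 to 9.55% with shBRG1, 13.0 to 13.5% with shSCR2 and 12 to 12.5% with shMITF in 501Mel. In Hermes 3A they were 3.00 to 3.25% with shSCR, 3.24 to 3.36% with shBRG1 and 2.30 to 6.34% with shMITF. Over the 19 samples, which share 2 lines and 7 groups, CDK2 and PMEL correlated at r = 0.71 on the log2 scale, and PMEL ranked 825 of the 13992 genes compared. The 3 most like CDK2 were BNC2 (r = 0.97), BHLHE41 (r = 0.97) and RTTN (r = 0.96).

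**Figure D3:**
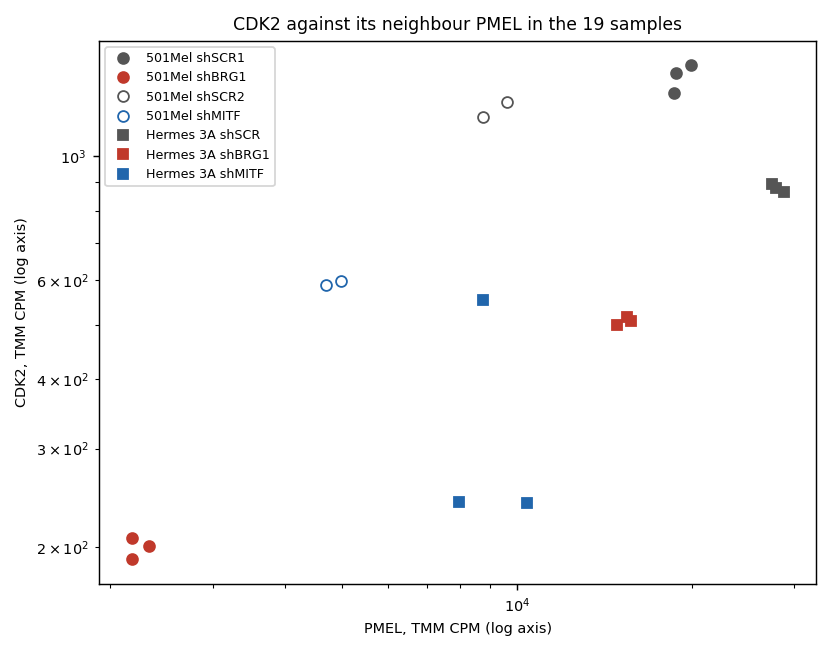
Level of CDK2 against that of PMEL in each of the 19 samples, both as TMM CPM on log axes; circles are 501Mel (open for shSCR2 and shMITF) and squares Hermes 3A. Hermes 3A samples with shMITF have PMEL at 7957 to 10410 CPM and CDK2 at 239.5 to 553 CPM, and the 501Mel shSCR2 samples, near the same PMEL level, have CDK2 at 1176 and 1249 CPM.

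CDKN1A (ENSG00000124762, chromosome 6 from 36676460 to 36687339) encodes p21 and separated the lines more than any other gene of the set. Its 501Mel levels were 6, 2 and 5 counts with shSCR1, 6, 16 and 19 counts with shBRG1, 0 and 2 counts with shSCR2, and 2 and 0 counts with shMITF. These 58 counts over 10 samples are 0.124 CPM (95% Poisson interval 0.0941 to 0.160, for counting error only). In Hermes 3A the gene had 18211 to 63839 counts per sample. The log2 fold change between the scramble groups of 501Mel (shSCR1) and Hermes 3A was -13.20, and -13.47 to -12.74 with a sample left out. The gene was tested there only through its Hermes 3A counts. The size of the change rests on the few counts of 501Mel, so that no standard error or p is given. The gene did not pass the filter on low counts in either 501Mel comparison. Without that filter the log2 fold change with shBRG1 was 1.23 ± 0.50 (adjusted p = 0.030), at levels under 0.4 CPM. It was 1.27 (adjusted p = 0.076) with all 501Mel groups in 1 fit and 0.80 (adjusted p = 0.20) without shSCR1 replicate 2. In the other fits in which a sample was left out and the gene was tested it was 1.48 to 1.66. With a sample left out, the gene was tested only where shBRG1 replicates 2 and 3, with its highest counts, were both kept. Those fits therefore add no separate evidence of a rise. In Hermes 3A the levels were 943, 984 and 891 CPM with shSCR and 1285, 1141 and 1150 CPM with shBRG1, a rise of 0.33 ± 0.049 (adjusted p = 1.5e-06) with groups apart. With shMITF the samples had 1176, 582 and 848 CPM, on both sides of the scramble samples, and the log2 fold change was -0.09 ± 0.24 (adjusted p = 0.83). The 3 genes most like CDKN1A over the 19 samples were IGFBP7, UNC93B1 and CPNE8, each at r = 0.999, a likeness that the gap between the lines sets.

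CDKN1B (ENSG00000111276, chromosome 12 from 12715058 to 12722371) encodes p27, an inhibitor that quiescent cells hold at high levels. In 501Mel it had 85.6, 82.5 and 80.2 CPM with shSCR1 and 45.4, 42.2 and 44.0 CPM with shBRG1, a log2 change of -0.97 ± 0.049 (adjusted p = 1.0e-14), just under the threshold of a call. With shSCR2 it had 100.6 and 96.0 CPM and with shMITF 144.6 and 102 CPM, a log2 change of 0.33 ± 0.16 (adjusted p = 0.18). The effect of shBRG1 was 1.27 ± 0.15 lower than that of shMITF (adjusted p = 8.2e-06). In Hermes 3A it had 69.5, 65.1 and 66.7 CPM with shSCR and 71.5, 73.3 and 75.3 CPM with shBRG1, a log2 change of 0.11 ± 0.045 (adjusted p = 0.035). CDKN1B thus also moved in opposite directions in the 2 lines with shBRG1, but the rise in Hermes 3A did not pass without any 1 of the shBRG1 samples (adjusted p = 0.067 to 0.19) or without shSCR replicate 2 (adjusted p = 0.078). With shMITF it had 161, 101 and 151 CPM, a rise of 1.06 ± 0.17 (adjusted p = 0.0058), with every sample above the scramble samples. This was the single called rise of an inhibitor in Hermes 3A, and it was 0.92 without Hermes 3A shMITF replicate 1 and 1.00 (not beyond 1) without replicate 3, so that the call was lost. The effect of shBRG1 was 1.11 ± 0.068 lower in 501Mel than in Hermes 3A (adjusted p = 5.3e-17), and the difference for shMITF, -0.73 ± 0.27, did not pass (adjusted p = 0.18).

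CDKN2A (ENSG00000147889, chromosome 9 from 21967753 to 21995301), the gene of p16 and ARF, was counted in every sample at 47.0 to 129 CPM. 501Mel cells had 74.4, 75.9 and 72.2 CPM with shSCR1 and 100.5, 100.7 and 99.8 CPM with shBRG1, a rise of 0.39 ± 0.045 (adjusted p = 4.0e-08). In the shSCR2 pair it had 73.0 and 73.3 CPM and with shMITF 47.0 and 54.2 CPM, a log2 change of -0.52 ± 0.14 (adjusted p = 0.029). The fall with shMITF did not pass with library sizes (adjusted p = 0.060), with both scramble groups as the control (0.069), without shSCR2 replicate 1 (0.053) or without shMITF replicate 1 (0.12). In 501Mel the effects of the 2 knockdowns differed by 0.93 ± 0.11 (adjusted p = 4.4e-06). In Hermes 3A it had 113.5, 122 and 103.5 CPM with shSCR and 123, 129 and 119 CPM with shBRG1, where the groups overlapped (0.11 ± 0.050, adjusted p = 0.052). With shMITF it had 83.7, 73.7 and 80.7 CPM, a log2 change of -0.49 ± 0.12 (adjusted p = 0.028), which did not pass with the replicate block (adjusted p = 0.056) or without any 1 of the shSCR samples (adjusted p = 0.080 to 0.14). It was never called, and counts per gene do not divide p16 from ARF. CDKN2B, which shares identical coding windows with it, had 297 to 316 CPM with shBRG1 in 501Mel. Whether reads of CDKN2B entered the rise of CDKN2A there was not tested. CDKN2B-AS1 on the other strand shares 341 of the 4329 exon bases of CDKN2A and was at 0.487 to 2.30 CPM.

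CDKN2B (ENSG00000147883, chromosome 9 from 22002903 to 22009363) encodes p15, which TGF-beta signalling is known to raise, and had the largest rise of the set. In 501Mel it had 33.0, 30.0 and 27.4 CPM with shSCR1 and 297, 305 and 316 CPM with shBRG1, a log2 change of 3.29 ± 0.060 (adjusted p = 6.9e-23). It was called in 14 of 14 alternative fits, at 3.21 to 3.83. With shSCR2 it had 9.82 and 7.19 CPM and with shMITF 36.7 and 73.7 CPM, a log2 change of 2.73 ± 0.41 (adjusted p = 0.011). The shSCR2 samples stood below the shSCR1 samples, by 1.83 ± 0.17 (adjusted p = 2.2e-05), and the shMITF samples stood above both. With both scramble groups as the control the rise with shMITF was 1.37 (adjusted p = 0.25). Without 501Mel shSCR2 replicate 1 or replicate 2 it was 3.00 (adjusted p = 0.29) and 2.45 (adjusted p = 0.26), and the call was lost in each. Without shMITF replicate 2, the higher of that pair, it was 2.09 (adjusted p = 9.1e-05), and the difference between the lines given below was 2.18 (adjusted p = 0.015). In Hermes 3A CDKN2B had 17.1, 17.9 and 16.5 CPM with shSCR and 21.0, 20.1 and 20.9 CPM with shBRG1, a rise of 0.25 ± 0.069 (adjusted p = 0.0027). With shMITF it had 17.5, 12.2 and 18.2 CPM, a log2 change of -0.08 ± 0.18 (adjusted p = 0.78). The effects differed between the lines by 3.01 ± 0.082 for shBRG1 (adjusted p = 8.2e-28) and by 2.79 ± 0.40 for shMITF (adjusted p = 0.0034). Its neighbour CDKN2A, with which it shares identical coding windows, changed by 0.39 where CDKN2B changed by 3.29. MTAP, on the far side of CDKN2A (chromosome 9 from 21802543 to 21937651), fell by 0.67 with shBRG1 and had -0.34 (adjusted p = 0.075) with shMITF in 501Mel, and was at 32.2 to 90.7 CPM.

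RB1 (ENSG00000139687, chromosome 13 from 48303726 to 48599436), the substrate of these kinases, moved little. Its level in 501Mel was 93.7, 93.7 and 94.8 CPM with shSCR1 and 70.1, 60.7 and 69.9 CPM with shBRG1, a log2 change of -0.54 ± 0.054 (adjusted p = 2.6e-09) that was -0.19 with library sizes. The pair with shSCR2 had 149 and 126 CPM and with shMITF 108.5 and 112 CPM, a log2 change of -0.31 ± 0.14 (adjusted p = 0.16). The 9 Hermes 3A samples lay between 126 and 166 CPM, and their log2 fold changes were 0.03 ± 0.051 with shBRG1 and -0.17 ± 0.13 with shMITF, with overlapping groups. The effect of shBRG1 was 0.60 ± 0.084 lower in 501Mel than in Hermes 3A (adjusted p = 2.0e-07).

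Taking the differences between effects by count, 8 of the 10 genes differed between the lines in the effect of shBRG1, against 57.9% of 21697 genes tested. In the effect of shMITF, 2 of the 10 differed (CDK6 and CDKN2B), against 2.99% of 19284 genes. Within 501Mel, 6 of the 10 differed between the effects of shBRG1 and shMITF, against 48.1% of 22255 genes. With both scramble groups as the control, the order of the 2 effects turned for 3 of these 6 (CDK6, CCND1 and CDK4). CDKN1A is among the 10 in each of these counts, but had only 0 to 19 counts per 501Mel sample. Its difference between the knockdowns in 501Mel was 1.15 ± 1.97, so that it hardly informs these counts. The samples of shMITF varied more than those of shBRG1 in both lines, as the coefficients above show.

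Levels could be compared between genes only per length, as CPM per kilobase of exon. With shSCR1 in 501Mel the order was CDK2 (356 ± 20.9), CCND1 (254.5 ± 8.87), CDK4 (44.8 ± 3.58), CDKN1B (29.4 ± 0.967), CDKN2A (17.1 ± 0.421), RB1 (14.6 ± 0.0949), CDKN2B (7.43 ± 0.682), CCNE1 (3.5 ± 0.041), CDK6 (0.911 ± 0.0684) and CDKN1A (0.0329 ± 0.0181; SD, n = 3), and each lay above the next in every sample. With shBRG1 CDKN2B rose to the top of this order at 75.4 ± 2.35, where it overlapped CCND1 at 74.6 ± 2.64 (SD, n = 3). In Hermes 3A with shSCR CCND1 led at 919 ± 18.9, ahead of CDKN1A (308 ± 15.2), CDK2 (225 ± 3.70) and CDK4 (202 ± 6.68), and CDK6 was last at 1.99 ± 0.101 (SD, n = 3). CDKN2A at 26.1 ± 2.14 and CDKN1B at 23.9 ± 0.802 overlapped there, as did CDKN1B and RB1, and CCNE1 and CDKN2B.

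Between the scramble groups of the lines, 4 of the 10 genes were called, all lower in 501Mel (shSCR1) than in Hermes 3A, where 41.4% of 18731 genes were called in either direction. Besides CDKN1A, which was tested only through its Hermes 3A counts, these were CDK4 at -2.14 ± 0.052 (adjusted p = 1.0e-21), CCND1 at -1.82 ± 0.046 (adjusted p = 2.4e-21) and CDK6 at -1.09 ± 0.076 (adjusted p = 1.9e-12). CDK6 was not called with library sizes (-0.83), and it lay above Hermes 3A in the shSCR2 samples of 501Mel. CDK2 was 0.70 ± 0.046 and CDKN2B 0.86 ± 0.075 higher in 501Mel, and CDKN2B was called at 1.11 with library sizes. In the shSCR2 samples CDKN2B instead lay below every Hermes 3A shSCR sample. The sources used here do not say whether Hermes 3A cells carry an introduced gene that bears on the level of CDK4 or CDKN2A. Between the scramble groups of 501Mel, 8 of 9 genes passed (all but CDKN2A), where 6583 of all 19056 genes passed lower and 6720 higher. Of the 9, 3 were called, where 33% of all genes were. CDK6 was 1.95 ± 0.088 higher with shSCR2 (adjusted p = 5.3e-07), and CDKN2B 1.83 ± 0.17 and CCND1 1.07 ± 0.089 lower (adjusted p = 2.2e-05 and 7.8e-06). The sources used here do not say whether shSCR1 and shSCR2 differ in vector, day or culture.

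Other genes of the pathway were taken from lists drawn up by function. Of 15 genes of S phase and mitosis, 15 were lower in each of the 4 comparisons, except that 13 were with library sizes for shMITF in Hermes 3A (CDT1 and MCM3 turned), and the numbers that passed were 15 with shBRG1 and 14 with shMITF in 501Mel, then 15 and 7 in Hermes 3A. Their median log2 fold changes, in that order, were -1.35, -0.87, -0.62 and -0.51, beside medians of 0.05, 0.01, 0.01 and 0.05 for all genes. Of all genes, 80.3%, 20.5%, 56.9% and 17% passed in the same order, in either direction. With shBRG1 in 501Mel 9 of the 15 were called down, led by the replication helicase MCM6 (-2.77), the proliferation antigen MKI67 (-2.63) and the polymerase clamp PCNA (-2.00). With shMITF in 501Mel 4 were, led by MCM6 (-1.53), the mitotic kinase CDK1 (-1.37) and the ribonucleotide reductase subunit RRM2 (-1.05). In Hermes 3A shBRG1 lowered the origin licensing factor CDC6 (-1.22) past the call, and shMITF MKI67 (-1.06) and RRM2 (-1.04). The shares of all genes called down were 17.4%, 3.4%, 3.47% and 4.04%, in the order above. With library sizes 7, 2, 1 and 0 of the 15 were called. Of all genes, 2398 of 20514, 459 of 17701, 467 of 17222 and 540 of 16508 were then called down. The shSCR2 samples themselves had all 15 genes higher than the shSCR1 samples, with a median of 0.99. All 15 passed, where 6720 of 19056 genes passed higher.

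Among 25 further genes of the G1/S machinery the picture was mixed. In 501Mel with shBRG1, 24 were tested, 10 were called down and 1 up, with a median of -0.59, where 17.4% and 21.7% of all genes were called. With library sizes 3 were called down and 1 up, with a median of -0.24, where 2398 and 6192 of 20514 genes were. Between shSCR2 and shSCR1 10 were called up and 1 down, with a median of 0.73, where 2344 and 3938 of 19056 genes were. The genes called down with shBRG1 were led by CDKN1C (-4.20), the gene of p57 and the third CIP/KIP inhibitor, by E2F8 (-2.15), an E2F repressor, and by TFDP1 (-1.86), the dimer partner of E2Fs. With shMITF in 501Mel 3 were called down and 1 up, with a median of -0.35, where 3.4% and 5.59% of all genes were called. The phosphatase gene CDC25A, which activates CDK2, fell by 2.00, E2F8 fell by 1.70 and E2F5 rose by 1.10. Hermes 3A with shBRG1 had 2 called down of 25, where 3.47% of all genes were. These were the CDK subunit gene CKS1B (-1.86) and the cyclin gene CCNA2 (-1.06). The median was -0.39, and with library sizes CCNA2 (-0.95) was not called. With shMITF the median was 0.05, CDC25A fell by 1.85 and the cyclin gene CCND2 rose by 1.72 (adjusted p = 0.050, just under the threshold). Of all genes there, 4.04% were called down and 3.35% up.

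LMNB1, HMGB1 and HMGB2, nuclear proteins that fall in senescent cells, were lower in all 4 comparisons, except that HMGB1 turned with library sizes for shMITF in Hermes 3A. With shBRG1, LMNB1 (-1.66 in 501Mel, -1.13 in Hermes 3A) and HMGB2 (-1.01 and -1.04) were called in both lines, HMGB2 in neither with library sizes. The shares of all genes called down were 17.4% in 501Mel and 3.47% in Hermes 3A. With shMITF all 3 passed in 501Mel (2 with library sizes), where 20.5% of all genes did, with a median of -0.67. In Hermes 3A 2 passed, where 17% of all genes did, with a median of -0.65. The shSCR2 samples themselves had all 3 genes higher than the shSCR1 samples, with a median of 0.87. All 3 passed, where 6720 of 19056 genes passed higher.

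**Figure D4:**
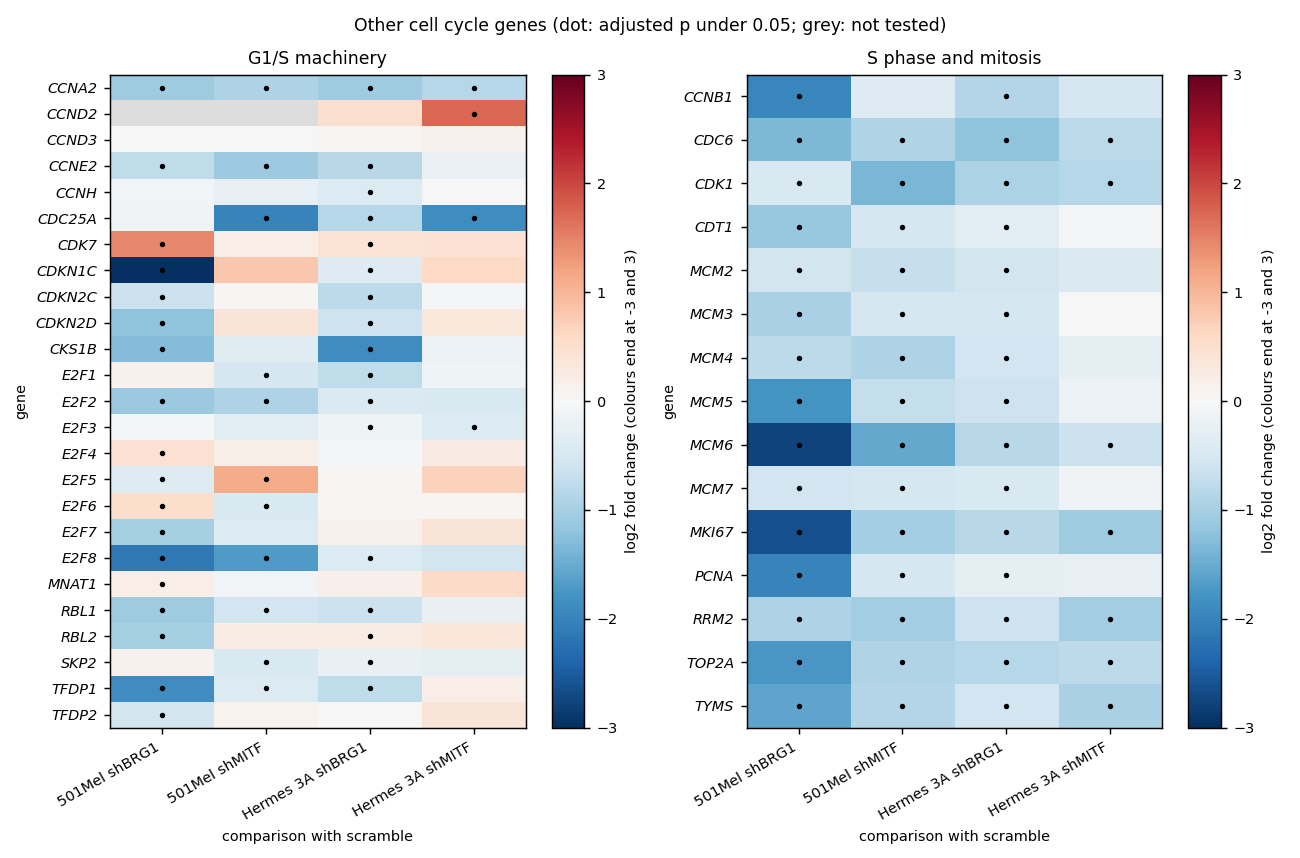
Log2 fold change of 25 G1/S genes and 15 genes of S phase and mitosis in the 4 knockdown comparisons, as colour from -3 to 3; dots mark an adjusted p under 0.05 and grey cells were not tested. All 15 S phase and mitosis genes are lower in every column (with library sizes, 13 in that of Hermes 3A shMITF), and the G1/S genes move both ways.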

How the data were processed

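Ribosomal RNA was removed from total RNA before the authors prepared libraries, and a duplex-specific nuclease step was used that lowers the most abundant cDNAs and can compress high levels. They deposited raw read counts per Ensembl gene, with no normalization, one set per sample. The submitters' processing notes name CASAVA 1.8, TopHat 1.4.1, Bowtie 0.12.7 and the build hg19. The counting program, annotation release and strand setting are not given in the sources used here. Totals of 29158502 to 78857900 counts per sample set the precision.

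Genes had to be listed for both groups of a comparison, which was fitted on its own samples in edgeR 4.0.16 (R 4.3.3): TMM, filterByExpr, robust glmQLFit and glmQLFTest, with Benjamini-Hochberg adjustment over all genes tested. Differences between effects were contrasts in 1 fit of the samples concerned. Standard errors are the size of the log2 fold change divided by the root of F. Likeness was Pearson's r of log2(TMM CPM + 1) among genes with a mean of at least 1 CPM. GENCODE 29 (GRCh38), matched by Ensembl identifier, gave positions, exon lengths and overlaps, RefSeq gave promoters, and the 50-base windows were of aligned coding sequences. Code was tested on simulated data. Figures and tables were made with Python 3.11.15, pandas 2.3.3 and matplotlib 3.10.9.

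The 10 genes, the lists and the tests were chosen with earlier results of these data known. All 10 are named throughout, with the shRNA targets and the neighbours PMEL, CDKN2B-AS1 and MTAP; from each other list up to 3 called genes with the largest change per knockdown comparison; and the 3 genes most like CDK2, CCND1 and CDKN1A. Alternatives were DESeq2 1.42.0, library sizes, a block for the replicate number, no low-count filter, a minimum of 10 counts per sample, a fit of all groups of a line together, glmTreat, no fold threshold, pooled scrambles and each sample left out. A list of genes and a stretch of sequence are not reported here.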

Additional observations from a re-analysis of the deposited data

Results flagged for a closer look

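Differences between effects were tested as contrasts, and 16 of them passed an adjusted p of 0.05 (edgeR, Benjamini-Hochberg over all genes). Between the lines, the effect of shBRG1 in 501Mel minus that in Hermes 3A was 3.35 for CDK6, 3.01 for CDKN2B and 0.24 for CDKN2A, and -2.07 for CDK2, -1.43 for CCND1, -1.11 for CDKN1B, -0.60 for RB1 and -0.36 for CCNE1, all on the log2 scale. For shMITF the same difference was 2.39 for CDK6 and 2.79 for CDKN2B. For CDK6, all samples of both knockdowns lay above their scramble group in 501Mel and below it in Hermes 3A.

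Within 501Mel, the effect of shBRG1 minus that of shMITF was -1.80 for CDK2, -1.27 for CDKN1B and -0.62 for CCND1, and 0.93 for CDKN2A, 0.54 for CDK6 and 0.35 for CDK4. Each effect was taken against its own scramble group, and 8 of the 9 genes tested, all but CDKN2A, differed between these groups. Of all 19056 genes tested there, 6583 passed lower and 6720 higher. With shSCR1 and shSCR2 pooled as the control, the effects of shBRG1 and shMITF were 0.96 and 2.34 for CDK6, -1.44 and -1.92 for CCND1, and -0.84 and -0.36 for CDK4, so that the sign of these 3 differences turned. It stayed for CDK2 (-2.73 and -1.15), CDKN1B (-1.03 and 0.46) and CDKN2A (0.43 and -0.54). The differences under the pooled control were not tested. Groups of 2 or 3 samples are too small for a test of single outlying samples.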

How the results depend on the processing

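Counts of the 10 genes called, or passing for the differences between effects, were compared with the reported count under each alternative setting. They kept within 1.5 times it in 156 comparisons and left it in 24. Each knockdown enters once for down and once for up, and counts of 0 under both settings are among the 156. With no fold threshold the counts down and up were 6 and 3 for 501Mel shBRG1, where 8022 and 8442 of 20514 genes were. They were 4 and 2 for 501Mel shMITF, where 1862 and 1775 of 17701 genes were. For Hermes 3A shBRG1 they were 4 and 3, where 4934 and 4862 of 17222 genes were. For Hermes 3A shMITF they were 4 and 1, where 1510 and 1296 of 16508 genes were. glmTreat, which tests against the threshold, gave 0 down and 1 up for 501Mel shMITF, where 82 and 141 of 17701 genes were. It gave 0 down and 0 up for Hermes 3A shMITF, where 102 and 83 of 16508 genes were. In the latter, at an unadjusted p under 0.05 with no threshold (edgeR), 4 were lower and 1 higher, and DESeq2 called 2 and 1, where 751 and 668 of 16508 genes were. Pooled scramble groups gave 1 up for shBRG1 in 501Mel, where 4274 of 20772 genes were. They gave 1 down and 0 up for shMITF in 501Mel, where 248 and 327 of 19569 genes were. Library sizes, and at least 10 counts in every sample, each gave 1 down for 501Mel shMITF, where 459 of 17701 and 491 of 15496 genes were. With each sample left out in turn 2 to 3 were down and 2 to 3 up for 501Mel shBRG1, where 3694 to 3814 and 4486 to 4805 of 20953 to 21441 genes were. The added gene up was CDKN1A, tested only with shBRG1 replicates 2 and 3 kept. For Hermes 3A shBRG1 the ranges were 1 to 1 and 0 to 0, where 600 to 661 and 975 to 1090 of 17610 to 17741 genes were. For Hermes 3A shMITF they were 1 to 3 and 0 to 1, where 354 to 898 and 236 to 692 of 16861 to 17091 genes were. Such fits of 501Mel shMITF leave 1 sample in a group, so no count is given. The differences between lines passed for 8 to 9 genes (shBRG1) and 2 to 4 (shMITF, with 4 without Hermes 3A shMITF replicate 2), those between knockdowns in 501Mel for 5 to 7, and 4 to 4 and 2 to 3 genes were called between scramble groups. Where the count fell with a left-out sample, fewer samples were fitted; otherwise the cause was not tested.

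Directions turned in 24 fits, none of them of a called value. With library sizes these were CCNE1 with shBRG1 in 501Mel (0.065, from -0.28, the single value among them that had passed the adjusted p), CDK4 (0.090), CCNE1 (0.058) and CDKN2B (0.0030) with shMITF in Hermes 3A, and RB1 for shBRG1 minus shMITF in 501Mel (0.021). With a sample left out, values ranged across 0 for CCNE1 (-0.016 to 0.11) and RB1 (-0.048 to 0.094) with shBRG1 in Hermes 3A, and for CDK4 (-0.34 to 0.18), CCNE1 (-0.11 to 0.017), CDKN1A (-0.39 to 0.12) and CDKN2B (-0.18 to 0.07) with shMITF in Hermes 3A. The same held for the shMITF difference between lines of CCND1 (-0.011 to 0.33), CDKN1A (-2.75 to 2.98), CDKN2A (-0.16 to 0.072) and RB1 (-0.31 to 0.030), for CDKN1A in shBRG1 minus shMITF (-1.95 to 4.42) and for CDKN2A between the 501Mel scramble groups (-0.037 to 0.037).

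The replicate block, with the replicate number as a factor, left 2 down and 2 up in both 501Mel comparisons, 1 down in Hermes 3A shBRG1, and 2 down and 1 up in Hermes 3A shMITF. Of all genes, 3566 and 4448 of 20514 were called with shBRG1 and 730 and 1127 of 17701 with shMITF in 501Mel. In Hermes 3A 599 of 17222 were called down with shBRG1, and 725 and 488 of 16508 were called with shMITF. Deviations of same-numbered samples correlated at -0.14 to 0.29 and not every pair exceeded 0.1, so the numbers were not taken as pairs.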

Other observations

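The genes around CDKN1A were looked at after its counts in 501Mel had been seen. Of the protein-coding genes within 250 kb, KCTD20 (7882 to 21075 counts per 501Mel sample), STK38 (1183 to 3051), SRSF3 (9430 to 37188), CPNE5 (146 to 786), PPIL1 (1583 to 7765) and C6orf89 (2054 to 5332) were all counted in each of the 10 samples, and CDKN1A at 0 to 19 counts lay between them. PXT1 and RAB44 were near 0 in both lines. CPNE5 had the opposite distribution to CDKN1A, with 3.24 to 15.3 CPM in 501Mel and at most 0.697 CPM in Hermes 3A.

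Over the 19 samples, the 3 genes most like CCND1 among 13992 were TPP1 (r = 0.99) and HEXA (r = 0.98), both genes of lysosomal enzymes, and PSAP (r = 0.99), the precursor of lysosomal activator proteins. The points share 2 lines and 7 groups, and r is a description only.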
